A study of Homo sapiens with 11 samples.

Results

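The mRNAs of the DEAD and DEAH box helicases were taken from lists of RNA windows enriched with RPS19, which is part of the small subunit of the ribosome. A window was a member when a gene name in its row began with DDX or DHX followed by a digit. By that rule 113 of 15402 windows listed with wild-type RPS19 (WT), 820 of 86567 listed with the substitution R62W and 834 of 93331 listed with the substitution R101H were members. Together they made 1102 distinct windows of 122708, in 48 gene names of 8697. The names matched 46 of the 54 protein-coding DDX and DHX symbols in RefSeq, 31 DEAD box and 15 DEAH box genes, and the other names were the pseudogenes DDX12P and DHX40P1. The symbols DDX4, DDX25, DDX43, DDX53, DDX60, DDX60L and DHX58 were among those with no window in any list.

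RPS19 is mutated in Diamond-Blackfan anemia, an inherited failure of red cell production, and the series compared the wild-type protein with R62W and R101H. RNA bound to each form was mapped by enhanced crosslinking and immunoprecipitation (eCLIP), in which RNA is crosslinked to protein in living cells, fragmented, precipitated with the protein and sequenced. The cells were HEK293T, a human embryonic kidney line, and each precipitate (IP) came from cells transfected with a plasmid for V5-tagged RPS19, precipitated with an antibody to V5. There were 3 WT, 3 R62W and 2 R101H replicates. The 3 size-matched inputs came from cells that received no plasmid, so they lack both the transfection and the antibody step. No label says that the cells' own RPS19 was removed, that the expressed amounts of the tagged proteins were matched, or that the replicates were separate cultures. The p-values therefore rest on a spread among replicates that may be purely technical.

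DEAD and DEAH box proteins are ATP-driven enzymes named after a short run of amino acids in the motif that binds and splits ATP. They unwind short RNA duplexes or strip proteins from RNA, and members act at nearly every step of an RNA's life: ribosome assembly in the nucleolus, splicing and export in the nucleus, and translation and decay in the cytoplasm. The values here concern the mRNAs that encode them, recovered with RPS19, and not the helicase proteins.

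The enrichment of a window is the authors' log2 odds ratio of IP over input reads. Each list gives the lowest, mean and highest value over the replicates in which the window passed the authors' test. Every listed window passed in at least 2 replicates with a highest q of at most 0.2. A window that is missing from a list has no value, which is not a measured 0. Where only 2 values are printed for WT or R62W, the other replicate did not pass and its value is unknown.

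A pair of adjacent windows at the start of the DDX41 mRNA shows what a window is and how sharply the lists can cut. DDX41 encodes a DEAD box protein of the spliceosome in which inherited mutations predispose to myeloid leukaemia. The first window lay in the 5′ UTR at chr5:177516946-177516961 on the minus strand (GRCh38), and its last coordinate is also the RefSeq start of the gene. The second, chr5:177516919-177516945, opens with the start codon, shown in capitals. Both sequences are from RefSeq (GRCh38.p14) and read 5′ to 3′.
DDX41 5′ UTR window: atgcgtgcagcaaaga
DDX41 start codon window: ATGgaggagtcggaacccgaacggaag
The 5′ UTR window was in all 3 lists. Its replicates had log2 odds ratios of 2.30 and 3.45 with WT, 3.40 and 3.43 with R62W, and 1.06 and 3.59 with R101H, so the groups overlapped. It rested on pooled input counts of only 3, 3 and 10 reads. The start codon window was listed with R62W, at 1.41 and 1.70, and with R101H, at 1.45 and 1.71, and not with WT.

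The last exons of DHX30 show a short intron in the same way. DHX30 is a DEAH box helicase needed for mitochondrial ribosome assembly, and MIR1226 is a microRNA whose hairpin fills one of its introns. The hairpin, chr3:47849555-47849629 on the plus strand, begins and ends with the letters of an intron, shown in capitals, and the mature 3′ arm follows with its seed, bases 2 to 8, in capitals.
MIR1226 hairpin: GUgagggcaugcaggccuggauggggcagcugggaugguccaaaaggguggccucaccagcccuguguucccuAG
hsa-miR-1226-3p: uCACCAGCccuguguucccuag
The coding window that ends just before the hairpin, at 47849554, had a mean log2 odds ratio of 2.03 with R62W and 2.14 with R101H. The coding window that begins just after it, at 47849630, had 1.17 and 1.53. No listed helicase window overlapped the hairpin in any of the 3 lists, and windows without a DDX or DHX name were not searched. Neither flanking coding window was listed with WT, so the absence there says nothing about the intron.

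With WT RPS19 the helicase windows were few and concentrated. Of the 48 names, 25 (52.1%) had a WT window, against 38.0% of all 8697 listed genes. DHX9, DDX17 and DDX39B held 56 of the 113 WT windows (49.6%), and 10 names had a single one. With R62W 47 names (97.9%) were listed, against 89.5% of all genes, and with R101H all 48, against 93.5%. The number of helicase windows was 7.26 times that of WT with R62W and 7.38 times with R101H. Over all windows these ratios were 5.62 and 6.06. There was 1 list per group, so the counts have no test. The share held by DHX9, DDX17 and DDX39B was 19.6% with R62W and 19.1% with R101H.

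**Figure D1:**
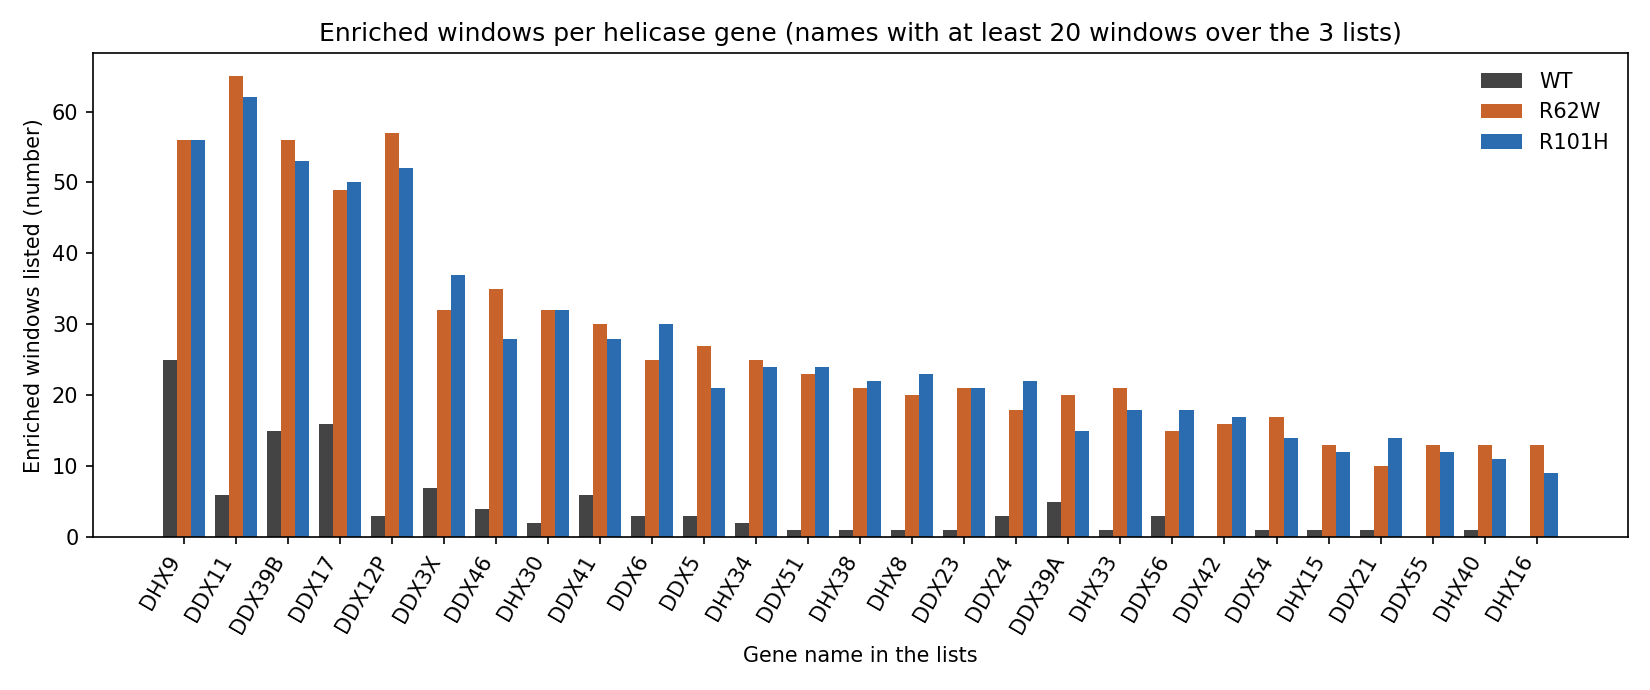
Number of enriched windows listed for each helicase gene name (bars; WT, R62W and R101H), for names with at least 20 windows over the 3 lists. DHX9 had most WT windows, 25, while DDX11 had most with R62W and R101H, 65 and 62; the R62W and R101H bars stood above the WT bar in each gene drawn.

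Among helicases of translation and mRNA decay, 4 of 8 genes had a WT window and all 8 were listed with each substitution. Of all listed genes 38.0% had a WT window, 89.5% one with R62W and 93.5% one with R101H. DHX9, an abundant RNA and DNA helicase also called RNA helicase A, led the WT list with 25 windows, 24 of them in coding sequence, between chr1:182843364-182887525. It had 56 windows with R62W and 56 with R101H, and 49 of them were the same in both. Their median log2 odds ratio was 1.63 with WT, 1.64 with R62W and 1.95 with R101H. The DHX9 window with the highest WT value was coding, at chr1:182876121-182876191. Its replicates were 1.45 and 3.14 with WT, 1.57 and 2.77 with R62W, and 1.91 and 3.75 with R101H, and these ranges overlapped. Among DHX9 windows with at least 10 pooled input reads, the highest R101H mean was in coding sequence at chr1:182876830-182876903, with replicates of 1.76 and 2.02 with WT, 1.87, 2.04 and 2.24 with R62W, and 2.81 and 2.88 with R101H. There R101H lay above both other groups. Another DHX9 coding window, among the highest of WT under the same input minimum, chr1:182884613-182884679, had 1.69 and 2.67 with WT, 1.84, 1.96 and 3.05 with R62W, and 2.02 and 3.12 with R101H, and did not separate the groups.

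DDX3X, which helps ribosomes start on mRNAs with structured leaders, had 7 WT, 32 R62W and 37 R101H windows. A DDX3X 3′ UTR window, chrX:41349891-41349989, passed in every replicate and rested on 139 WT input reads. Its replicates were 0.93, 1.62 and 1.69 with WT, 1.43, 1.61 and 1.91 with R62W, and 1.92 and 2.78 with R101H. The R101H values lay above all WT values, and the R62W values overlapped them.

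DDX6, a helicase of decapping and translational repression, differed from DHX9 in position. All 3 of its WT windows were in the 3′ UTR, as were 18 of 25 with R62W and 22 of 30 with R101H. DHX34, which acts in nonsense-mediated decay, had 2 WT, 25 R62W and 24 R101H windows. DHX29 assists scanning by the small ribosomal subunit on structured leaders. It had no WT window, 1 with R62W and 10 with R101H, all of these coding, and the R62W window was not among the 10. The R101H windows of DHX29 had means from 1.57 to 2.89 and at most 10 pooled input reads each.

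Helicases of splicing and export held more helicase windows than any other role in every list: 53 of 113 with WT, 333 of 820 with R62W and 314 of 834 with R101H. In WT 10 of the 16 genes had a window, against 38.0% of all listed genes. All 16 were listed with each substitution, against 89.5% of all genes with R62W and 93.5% with R101H. DDX39B, an export factor also known as UAP56, had 15 WT, 56 R62W and 53 R101H windows. All of these windows also carry the name of the ATP6V1G2-DDX39B readthrough transcript, from which its reads cannot be told apart. DDX17, a cofactor of splicing and transcription, had 16, 49 and 50 windows, and DDX5, its close paralogue, had 3, 27 and 21. DDX46, a helicase of branch site recognition, had 4, 35 and 28 windows, and DDX41 had 6, 30 and 28. DDX42, a helicase of the U2 snRNP, had none in WT, 16 with R62W and 17 with R101H.

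Values differed between these genes. The median log2 odds ratio of DDX17 windows was 0.97 with WT, 1.19 with R62W and 1.34 with R101H, below those of DDX41 at 2.11, 1.94 and 2.12. The DDX17 windows rested on far more input, for example 427 WT input reads at chr22:38488116-38488213, against 17 at the DDX41 window chr5:177515340-177515425. Gene medians cover only the windows that the authors' test listed and are not a ranking of binding.

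**Figure D2:**
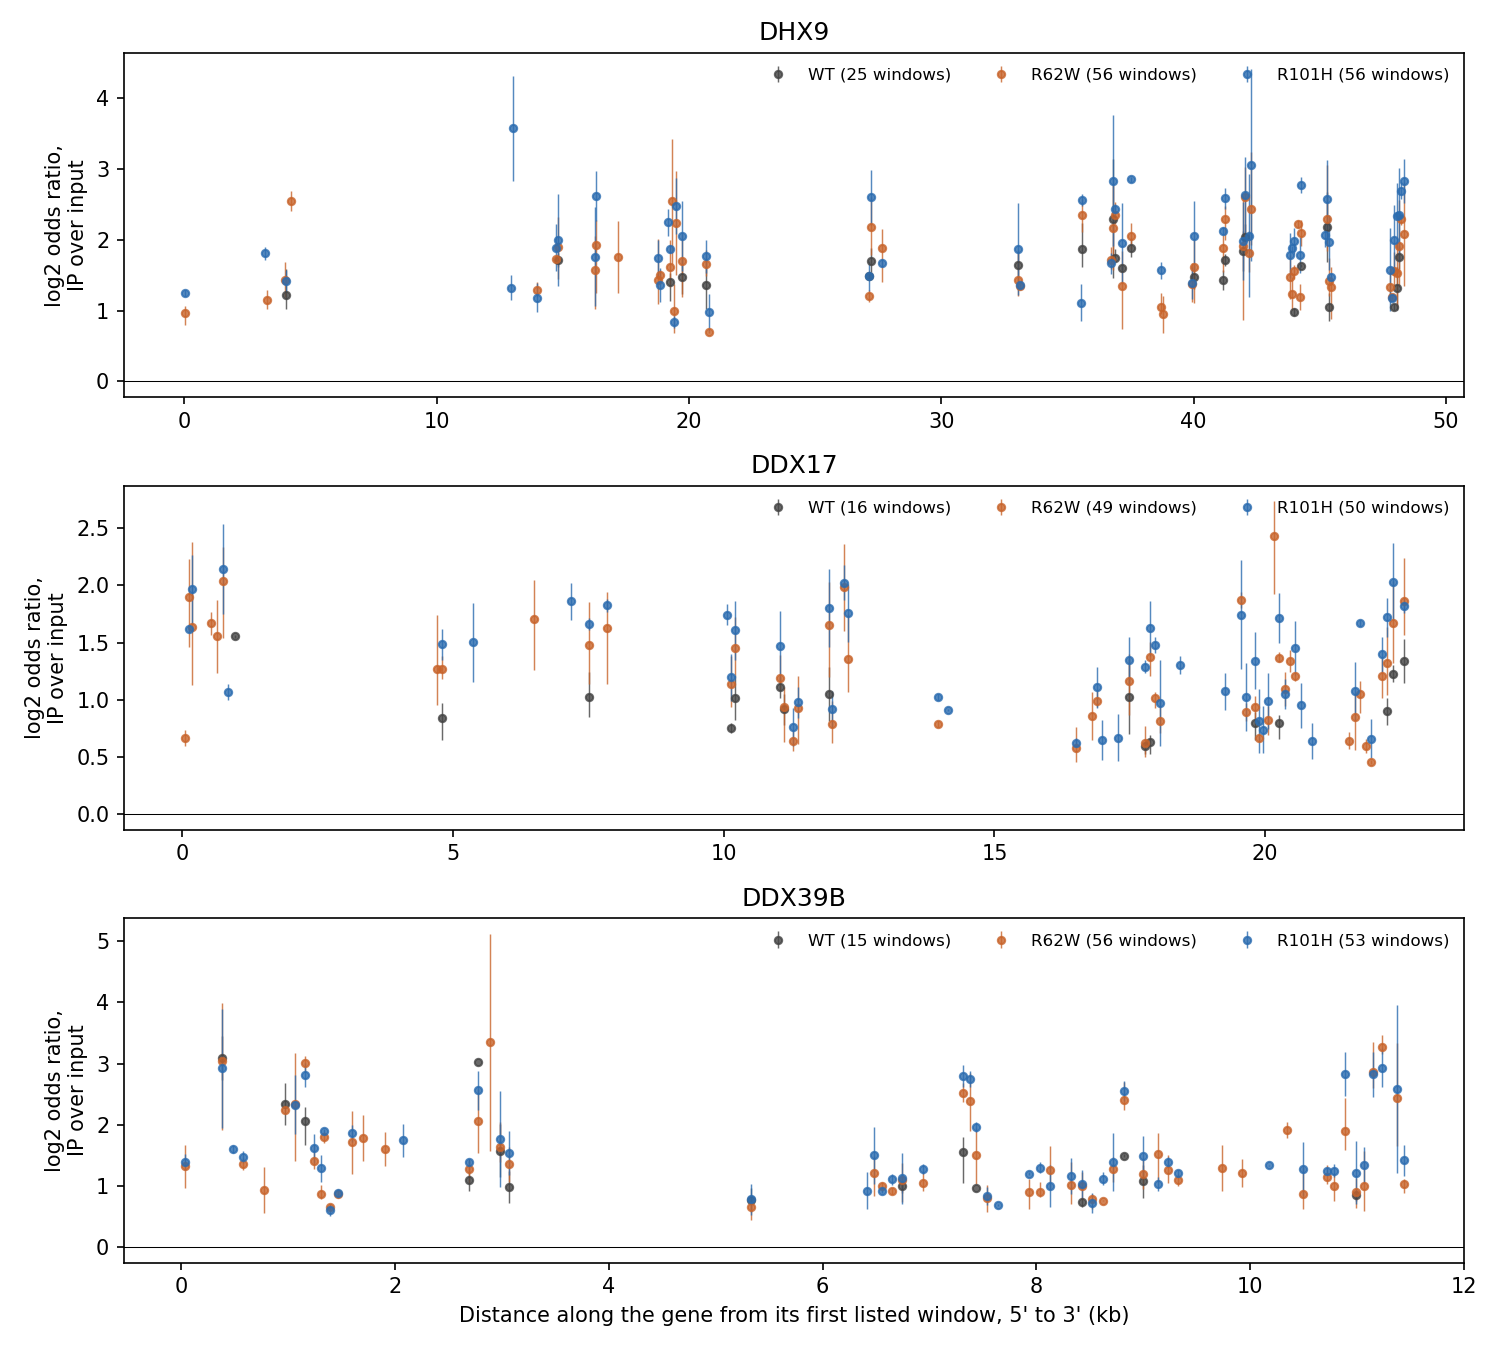
Mean log2 odds ratio over input (points) of each listed window of DHX9, DDX17 and DDX39B against distance along the gene in kb, 5′ to 3′, by group; vertical lines run from the lowest to the highest replicate that passed. WT windows (25, 16 and 15) fell among the R62W and R101H windows along each gene.

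Part of the windows of these mRNAs lay on sequence that one isoform keeps and another splices out. They were annotated as mRNA exon with no coding or UTR label. Such windows made 14.2% of helicase windows in WT (16, exact Clopper-Pearson 95% interval 8.32 to 21.97%), 9.51% with R62W (78, 7.59 to 11.7%) and 8.75% with R101H (73, 6.92 to 10.9%). Over all windows the shares were 2.90, 2.87 and 2.46%. All 16, 78 and 73 named a transcript of the retained intron type, and 16, 78 and 72 were also intron in another transcript. The first holds for nearly all windows of this class in any gene: 444 of 446, 2473 of 2484 and 2284 of 2298. Of these classes over all genes 388, 1991 and 1787 were also intron in another transcript. DDX39B alone held 8, 27 and 27 of them, and without it the helicase shares were 8.16, 6.68 and 5.89%. The intervals cover counting error only, windows of a gene are not independent, and this class was not tested. The class was singled out after its values were seen.

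A retained-intron window of DDX39B, chr6:31534512-31534606, had replicates of 1.04, 1.80 and 1.80 with WT, 2.38, 2.50 and 2.67 with R62W, and 2.62 and 2.97 with R101H. Another, chr6:31540665-31540760, had 1.67, 2.20 and 2.29 with WT, 2.87, 3.06 and 3.12 with R62W, and 2.61 and 3.01 with R101H. The retained-intron window of DDX41 named above had 1.33, 2.52 and 2.93 with WT, 2.20, 2.95 and 2.97 with R62W, and 2.32 and 3.90 with R101H. In both DDX39B windows the values of each substitution lay above all WT values, while in DDX41 they overlapped. The highest WT mean of any helicase window was another DDX39B window of this kind, chr6:31541440-31541536, at 2.73 and 3.44 with WT. There R62W had 1.92, 3.23 and 3.996 and R101H had 1.95 and 3.90, so this window did not separate the groups.

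Coding sequence held most helicase windows: 61.95% (52.3 to 70.9%) with WT, 55.9% with R62W and 56.1% with R101H. The share over all windows was 35.8% with WT, 53.2% with R62W and 53.7% with R101H. Introns held 2.66% (0.551 to 7.56%) of WT helicase windows but 31.4% of all WT windows. With R62W and R101H the helicase intron shares were 11.83 and 11.03%, against 13.5 and 10.7% over all windows. Those near matches rested on DDX11 and DDX12P, whose values are uncertain. Without this pair, left out after the data were seen, the intron shares were 2.89% with WT, 7.45% with R62W and 6.94% with R101H. The coding shares were then 65.4, 61.5 and 61.0%.

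**Figure D3:**
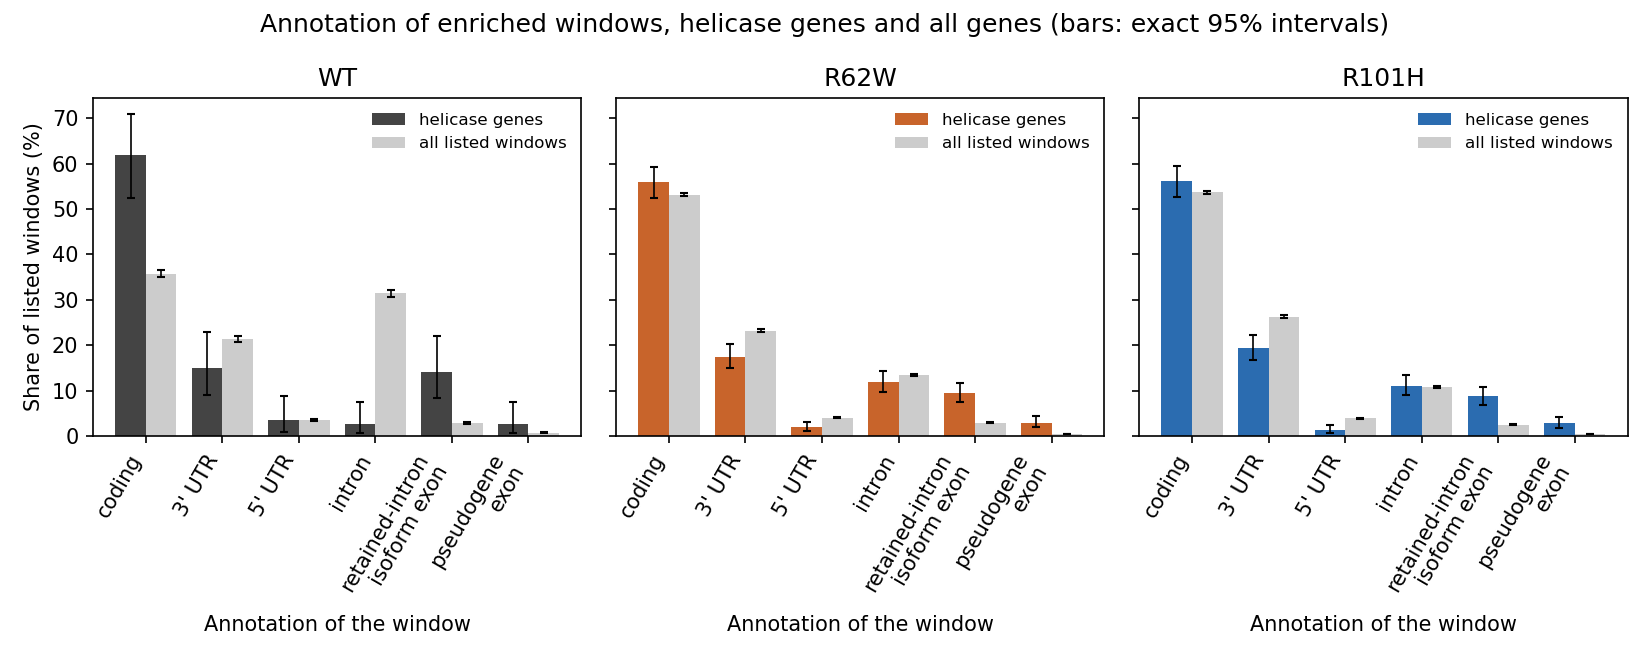
Share of listed windows (%) by annotation for helicase genes (coloured bars) and for all listed windows (grey bars) with WT, R62W and R101H, with exact 95% intervals for counting error. In WT the helicase bars stood higher for coding sequence (61.95 against 35.8%) and for retained-intron isoform exons (14.2 against 2.90%), and lower for introns (2.66 against 31.4%).

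Helicases of ribosome biogenesis, the process in which RPS19 itself takes part, had 11 WT windows. Of 16 genes 7 had a WT window, against 38.0% of all listed genes. All 16 were listed with each substitution, against 89.5% of all genes with R62W and 93.5% with R101H. There were 161 windows with R62W and 174 with R101H, which is 14.6 and 15.8 times the 11 of WT. Over all windows these ratios were 5.62 and 6.06. By role they ran from 4.22 and 4.92 for translation and mRNA decay to 16.0 and 16.5 for mitochondrial RNA, which had 2 WT windows. Splicing and export had 6.28 and 5.93, and genome maintenance, which is DDX11 alone, had 10.8 and 10.3. High ratios were thus not particular to ribosome biogenesis. DDX51, a factor of large subunit rRNA processing, had 1, 23 and 24 windows. DDX24 had 3, 18 and 22, DHX33 had 1, 21 and 18, and DDX56 had 3, 15 and 18. DHX33 resembled DDX6 in position, with 14 of 21 windows in the 3′ UTR with R62W and 14 of 18 with R101H. DDX10, DDX18, DDX27, DDX47, DDX50 and DDX55 had no WT window and at least 5 with a substitution. A coding window of DDX54, chr12:113161326-113161382, was among the highest with R101H, at 2.84 and 3.03. It had 1.92 and 2.17 with WT and 2.17, 2.22 and 2.27 with R62W, so R101H lay above both other groups (0.89 over WT, SE 0.40, limma adjusted p = 0.26). DDX54 encodes a nucleolar DEAD box protein. The WT windows of the biogenesis list had a median log2 odds ratio of 1.77, and those of R62W and R101H 1.83 and 1.86.

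The remaining genes included a pair that shares most of its sequence. DDX11 encodes a DNA helicase of sister chromatid cohesion, and DDX12P is its pseudogene. DDX11 had 6 WT, 65 R62W and 62 R101H windows, and DDX12P had 3, 57 and 52. Of the DDX12P windows with R62W 34 were intron and 23 pseudogene exon. The treatment of reads that fit both loci was not stated, so the values of both are uncertain. The highest R62W mean among windows with at least 10 input reads was at a DDX12P pseudogene exon, chr12:9418673-9418745. Its replicates were 1.24 and 2.19 with WT, 2.44, 2.89 and 4.64 with R62W, and 2.45 and 2.49 with R101H. Both substitutions lay above WT there, R62W by 1.61 (SE 0.72, limma adjusted p = 0.53). A DDX12P intron window, chr12:9435640-9435739, had 1.79, 2.88 and 3.25 with R62W and 3.07 and 3.12 with R101H, and no WT value. A DDX11 3′ UTR window, chr12:31103732-31103806, had 1.26 and 2.87 with WT, 1.49, 1.63 and 3.22 with R62W, and 1.67 and 2.83 with R101H, and its groups overlapped. Without them the lists held 104, 698 and 720 helicase windows.

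DHX30 had 2, 32 and 32 windows, and DDX28, another mitochondrial helicase, had 1 window, with R101H. None of the 4 helicases of antiviral sensing fixed as a list (DDX58, DHX58, DDX60 and DDX60L) was listed in any group. Altogether 23 names had no WT window, and 14 of them had at least 5 windows with a substitution. Besides those named above these were DHX16, DHX35, DHX36, DHX57, DDX1 and DDX19A.

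Helicase windows of WT were nearly all found again with the substitutions. Of the 113, 108 (95.6%, 90.0 to 98.5%) were listed at the same coordinates in R62W, against 79.6% of all WT windows. In R101H 105 (92.9%, 86.5 to 96.9%) were listed, against 72.0%. Intron windows of all genes were relisted less often, 48.7% with R62W and 33.7% with R101H. With introns left out the shares were 96.4% for helicases and 93.8% for all windows in R62W, and 93.6 and 89.5% with R101H. Of the 820 R62W helicase windows 554 (67.6%) were in the R101H list, which is 66.4% of the 834 R101H windows, and 69.2% of all R62W windows were relisted in R101H.

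The substitutions thus shared 452 helicase windows that WT lacked, while 260 were listed with R62W alone and 277 with R101H alone. These made 41.0, 23.6 and 25.1% of the 1102 helicase windows, near the 40.1, 20.4 and 26.9% over all windows. Only 2 helicase windows were listed with WT alone. One was a coding window of DDX24, chr14:94060990-94061066, at 1.71 and 1.98, and the other an intron window of DDX17, chr22:38505029-38505096, at 1.54 and 1.57. DDX24 encodes a nucleolar helicase, and both genes had other windows in every list.

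Windows present in both lists of a pair allow the values themselves to be compared. The unlabelled replicate values were recovered from the deposited lowest, mean and highest and compared with limma over all shared windows, with Benjamini-Hochberg adjustment. All comparisons with WT use the same WT samples, so their agreement is not independent, and a window listed in only 1 group does not enter.

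For R62W against WT, 94 of 108 shared helicase windows had a higher mean in R62W (87.0%), against 72.4% of all 12263 shared windows. The median difference was 0.24 on the log2 scale, against 0.26 over all windows. No helicase window passed at an adjusted p of 0.05 (0.0% of all windows did). An unadjusted p under 0.05 was found in 7 (6.48%), against 10.2% of all windows. In 28 (25.9%) the lowest passing R62W replicate lay above the highest passing WT replicate, against 24.1% of all windows. The reverse held in 3 of the 108, against 520 of all 12263. Replicates that did not pass have no value and do not enter such counts. Only 19 of the 113 WT helicase windows passed in all 3 replicates. Where each difference was centred on the median of all windows, 51 of 108 were higher and the median was -0.03. The median of the helicase windows thus did not exceed that of all shared windows.

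The difference with the lowest p in R62W against WT was at a DDX39B retained-intron window, chr6:31533010-31533107. Its replicates were 1.47, 1.48 and 1.52 with WT and 2.23, 2.26 and 2.70 with R62W. The R62W values lay well above the narrow WT range, a difference of 0.90 (SE 0.25, limma adjusted p = 0.39). By gene, the median differences ran from 0.85 in DDX12P, 0.49 in DDX11 and 0.45 in DDX41 down to 0.12 in DDX39B, 0.10 in DDX56 and 0.08 in DDX39A, among 12 genes with at least 3 shared windows. All 15 shared windows of DDX17 were higher in R62W, with differences from 0.02 to 0.74. DDX39B differed among its own windows, from -0.97 at an intron window with 2 WT input reads to 0.97 at the retained-intron window chr6:31534512-31534606.

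For R101H against WT, 96 of 105 shared helicase windows were higher in R101H (91.4%), against 82.5% of all 11082. The median difference was 0.58, against 0.60 over all windows. No helicase window passed at an adjusted p of 0.05 (0.0% of all windows). An unadjusted p under 0.05 was found in 12 (11.4%), against 21.3% of all windows. In 55 (52.4%) the R101H replicates lay above all WT replicates that passed, against 48.4% of all windows. The reverse held in 1 of the 105, against 426 of all 11082. After centring 48 of 105 were higher and the median was -0.02.

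DDX11 had the largest difference of R101H against WT, at its stop codon window, chr12:31103807-31103836. Its WT replicates were 1.26 and 1.52, its R62W replicates 2.28, 2.59 and 2.76, and its R101H replicates 2.79 and 2.87, so both substitutions lay above WT. The difference was 1.44 (SE 0.40, limma adjusted p = 0.17). It passed with windows of at least 10 pooled input reads, at an adjusted p of 0.046 by limma (SE 0.38), where 9.42% of all windows passed. It was the only helicase window to pass in any setting, and it lies in the gene whose reads may be shared with DDX12P. Over the 3 other settings in which it was tested its limma adjusted p ran from 0.165 to 0.619.

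DHX33, a ribosome biogenesis helicase, had a 3′ UTR window at chr17:5442212-5442310 with replicates of 1.77 and 1.80 with WT, 1.47, 2.39 and 2.68 with R62W, and 2.87 and 3.33 with R101H. R101H lay above both other groups there, by 1.31 over WT (SE 0.41, limma adjusted p = 0.18). A coding window of DDX5, chr17:64502922-64503021, rested on 152 WT input reads. Its replicates were 0.67, 0.92 and 0.95 with WT, 0.98, 1.21 and 1.38 with R62W, and 1.81 and 1.86 with R101H. The groups did not overlap and stood in the order WT, R62W, R101H, with R101H above WT by 0.99 (SE 0.34, limma adjusted p = 0.18).

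By gene, the median differences of R101H against WT ran from 0.81 in DDX6, 0.72 in DDX11 and 0.66 in DDX12P down to 0.34 in DDX41, 0.34 in DDX39B and 0.33 in DDX46. All 14 shared windows of DDX17 and 24 of 25 of DHX9 were higher in R101H. The 5′ UTR window of DDX41 printed above went the other way, by -0.55 (SE 0.90, limma adjusted p = 0.75).

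**Figure D4:**
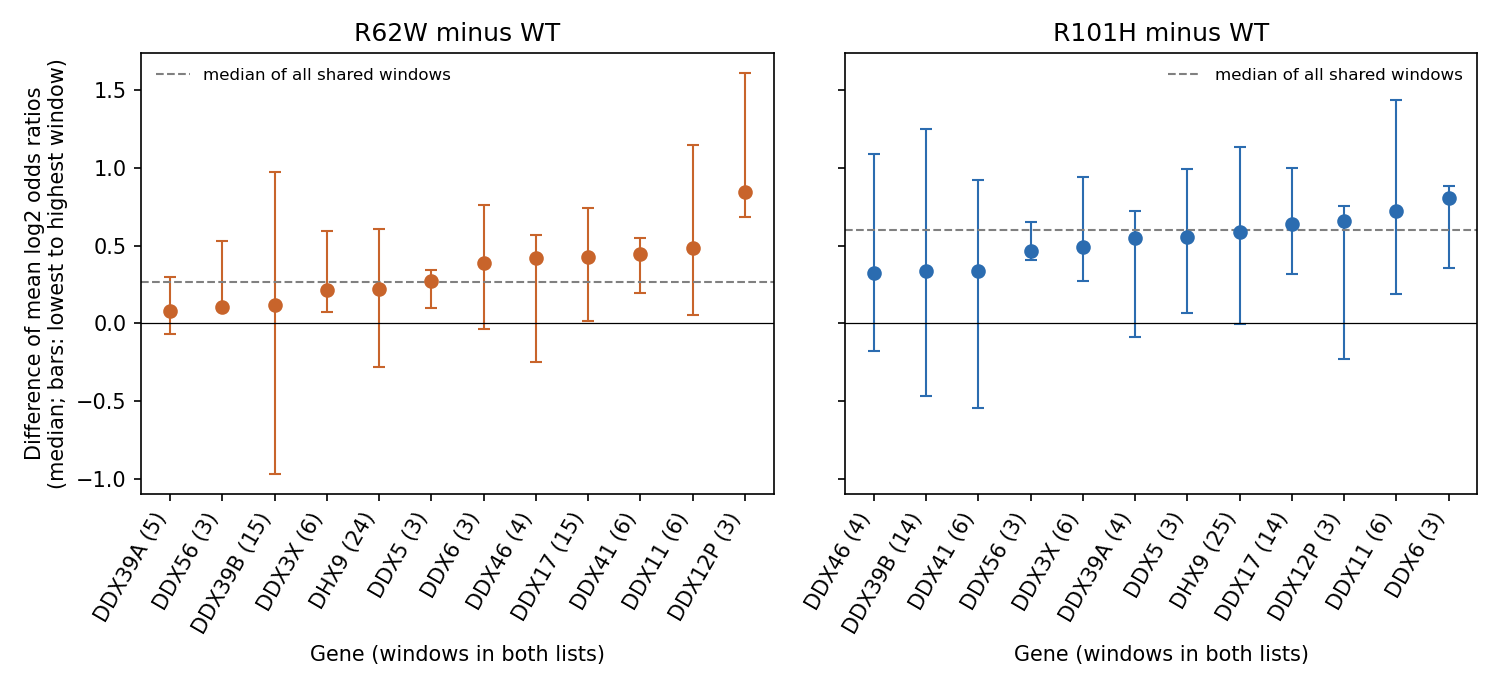
Difference of mean log2 odds ratios from WT for each helicase gene with at least 3 windows in both lists (point: median over windows; bars: lowest to highest window; number of windows in brackets), for R62W and R101H. Every gene median lay above 0, and the medians fell on both sides of the dashed line, the median over all shared windows (0.26 and 0.60), so the direction flips for part of the genes when differences are centred on it.

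Few windows passed in every replicate of both groups. There were 18 such helicase windows for R62W against WT, all higher in R62W (83.7% over all windows), with a median difference of 0.46, against 0.57 over all 2672 windows. There were 19 for R101H against WT, all higher in R101H (83.4% over all windows), with a median of 0.69 against 0.91 over all 2730. None of the helicase windows passed limma at an adjusted p of 0.05 there, while 0.0374% and 18.2% of all windows did. The lowest limma adjusted p of a helicase window was 0.055, for R101H. In each comparison 6 helicase windows had an unadjusted p under 0.05, which is 33.3 and 31.6%, against 26.9 and 44.5% of all windows. After centring the medians were -0.10 and -0.22, and 6 of 18 and 6 of 19 were higher.

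The pooled input counts appear to be sums over the replicates in which a window passed, so they depend on how many passed. In windows that passed in every replicate, the pooled input count of helicase windows was the same in R62W and WT in 13 of 18 and summed to 0.998 times that of WT. With R101H, which has 2 replicates, it was the same in 0 of 19 and summed to 0.659 times that of WT. Over all such windows the count was the same in 79.7% for R62W and in 3.41% for R101H. Its sums there were 1.0 and 0.664 times that of WT. Such windows set 3 WT replicates against 2 of R101H. A lower R101H sum was therefore fixed in advance and shows no difference of the inputs. Where 2 replicates passed in each list, the count was 13 reads in both at the DHX9 window chr1:182876121-182876191. At the DDX41 5′ UTR window it was 3 with WT and 10 with R101H. The part of the inputs in the differences was not tested.

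Between the substitutions, 391 of 554 shared helicase windows were higher in R101H than in R62W (70.6%), against 71.8% of all 59874. The median difference was 0.16, against 0.21 over all windows, and -0.05 after centring. No helicase window passed at an adjusted p of 0.05 (0.0% of all windows). An unadjusted p under 0.05 was found in 4 (0.722%), against 1.80% of all windows. In 90 (16.2%) R101H lay above all R62W replicates that passed, against 17.9% of all windows. R101H lay below them in 18 of the 554, against 2148 of all 59874. Among 33 genes with at least 3 shared windows, the median differences were highest in DHX33 at 0.47, DHX16, a helicase of spliceosome activation, at 0.36, and DDX55, a ribosome biogenesis factor, at 0.33. They were lowest in DDX1, which joins in tRNA ligation, at -0.29, DDX51 at -0.12 and DDX19A at -0.11. All 8 shared windows of DHX16 were higher in R101H, with differences from 0.02 to 1.04.

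The 102 helicase windows in all 3 lists can be ordered by their means. In 74 the order was WT, R62W, R101H from low to high. In 11 R62W was highest with WT lowest, and in 17 WT was not lowest. The same count was not made over the 10627 windows of all genes in all 3 lists. Over all windows shared by a pair, 72.4% were higher in R62W than in WT and 82.5% higher in R101H than in WT. R101H was higher than R62W in 71.8%. The order is thus not shown to be particular to helicases. The windows in which WT was not lowest included the DDX39B and DDX41 windows with the highest WT means, chr6:31541440-31541536 and the 5′ UTR window printed above. They rested on 9 and 3 WT input reads, and picking windows by a high WT mean favours those in which WT is not lowest.

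**Figure D5:**
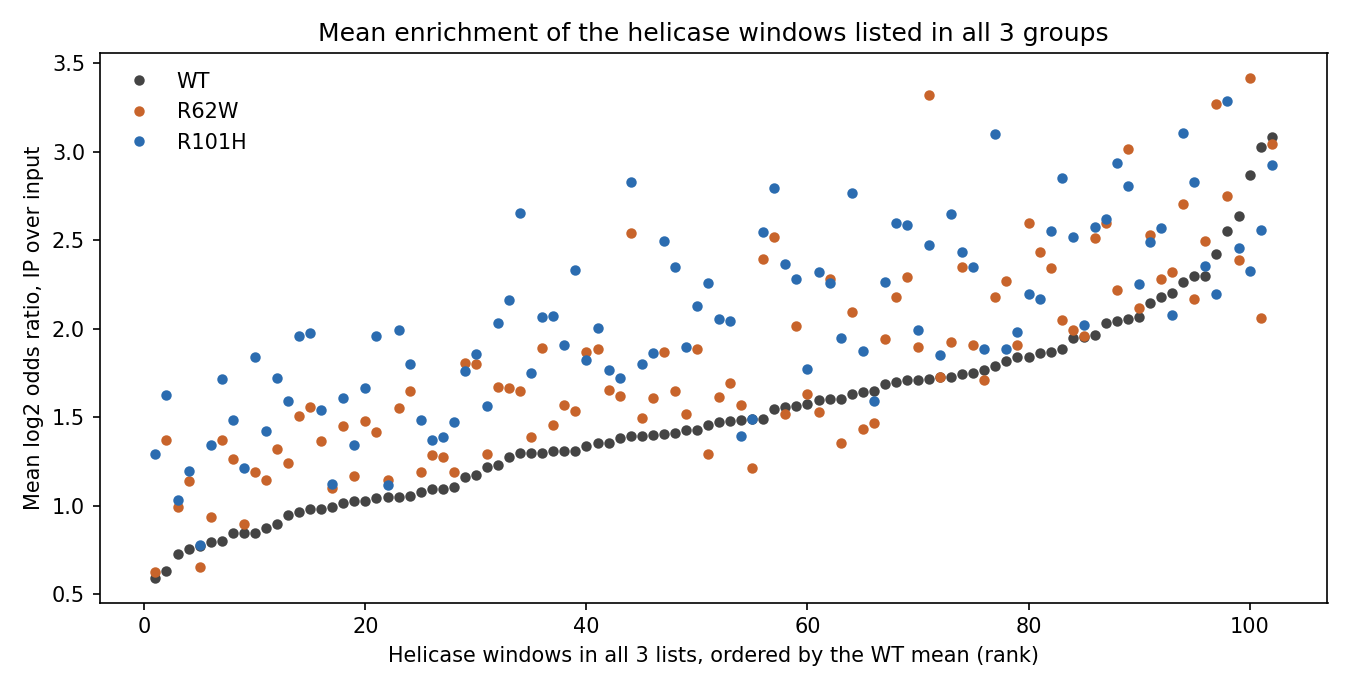
Mean log2 odds ratio over input of the 102 helicase windows found in all 3 lists, ordered by their WT mean (x axis, rank), with 1 point per group. Most R101H points lay above the R62W points and both above WT, in that order in 74 windows. This order was not counted over the windows of all genes. At the highest WT means the groups mixed, but ordering by the WT mean itself favours high WT values there. Centred on the median of all shared windows, the difference from WT was higher in 51 of 108 windows for R62W and 48 of 105 for R101H.

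Helicase windows had lower values and more input reads than the lists as a whole, most of all in WT. Their median log2 odds ratio was 1.47 with WT, 1.67 with R62W and 1.78 with R101H, against 2.03, 1.90 and 2.00 over all windows. The median pooled input count was 27, 16 and 15 reads, against 11, 12 and 11. Of the helicase windows 12.4% with WT, 28.4% with R62W and 30.9% with R101H had fewer than 10 pooled input reads. Over all windows these shares were 45.7, 40.0 and 43.9%. Input counts depend on how many replicates passed, so they do not compare the 3 lists with each other. With WT 19 of 113 (16.8%) passed in all 3 replicates, against 22.8% of all windows, and with R62W 335 of 820 (40.9%) did, against 44.5%. With R101H all 834 passed in both of its replicates, as did every window of that list.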

How the data were processed

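Per the submitters' processing notes, reads were handled with fastp and STAR on the GRCh38 build. How windows were called, and with which versions, was not stated. For each IP group the authors deposited a single table of enriched windows that pools its replicates. Per the file headers, it gives read counts of IP and input per window as sums over replicates. Enrichment is given by the authors as a log2 odds ratio against input, in columns for the lowest, mean and highest replicate that passed. The p-values and q-values come from the authors' test, the deposited G and C content is a fraction, and a deposited score gives the number of replicates passed. Depth is known only as pooled counts per window, since the tables hold no library totals, and no expression level was at hand to check the cell line.

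The members and the gene lists were chosen with earlier results of these data known. Windows were matched at identical coordinates, written 1-based. The middle of 3 replicate values was computed from their mean, lowest and highest. The values entered limma 3.58.1 in R 4.3.3 (lmFit, eBayes) over every window that both groups list, and p-values were adjusted by the method of Benjamini and Hochberg with a threshold of 0.05, after the script was tested on simulated data. Tables were made with Python 3.11.15 and pandas 2.3.3, and Clopper-Pearson intervals at 95% with SciPy 1.17.1.

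Genes were named by a rule: the 4 genes with most windows in each role list, the 5 windows per group with the highest means among those with at least 10 input reads, the 3 genes with the highest and the 3 with the lowest median difference per comparison among genes with at least 3 shared windows, genes with at least 5 windows in a substitution and none in WT, WT genes absent from a substitution list, windows called by limma in any setting, and pseudogenes. The DDX3X and DDX5 windows, the other windows described by replicate that this rule does not name, the printed sequences, and the windows described as highest, lowest or unlike their gene, were chosen after their values were seen.

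Sequences came from RefSeq tables (GRCh38.p14), in which 42 of 48 names had an entry for 250 bases before to 50 after the gene start. The G and C share of 732 of 732 windows inside such entries equalled the deposited fraction within 0.0001. Alternatives changed the windows tested, the q limit, the input minimum, the centring and the treatment of overlapping genes. Repeat element tables were not used.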

Additional observations from a re-analysis of the deposited data

How the results depend on the processing

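Of 56 recomputed results, 44 kept their direction and side of the threshold or, for counts, stayed within 1.5 times. Of these, 3 median differences moved by over 1.5 times: R62W less WT was 0.46 in windows that passed in every replicate and 0.45 under a q limit of 0.05 (0.24 as reported), and R101H less R62W was 0.25 in windows that passed in every replicate (0.16 as reported). The median differences reversed when centred on the median of all windows tested, to -0.0267 (R62W less WT), -0.0242 (R101H less WT) and -0.0466 (R101H less R62W). With windows that passed in every replicate and centring together, an alternative chosen after seeing the data, they were -0.103, -0.216 and -0.0512. With at least 10 pooled input reads limma called 1 helicase window for R101H minus WT, in DDX11, against 0 as reported. Under a q limit of 0.05 the listed helicase windows fell to 14 with WT, 216 with R62W and 377 with R101H. With windows that passed in every replicate there were 19 with WT and 335 with R62W. Leaving out DDX11 and DDX12P, also chosen after seeing the data, moved the medians to 0.22, 0.56 and 0.16. Any overlap on the same strand gave the same relisted shares as identical coordinates, 95.6 and 92.9%. Leaving out each replicate in turn was not run because the deposited values carry no replicate label. No paired analysis was possible because the recovered values carry no replicate numbers. Low input limits the values: 30.9% of R101H helicase windows had fewer than 10 pooled input reads, against 43.9% of all R101H windows.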

Other observations

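RNA helicases that carry other names also had more windows with the substitutions than with WT, as did the lists as a whole. Of 20 such genes, chosen with earlier results known, 9 had a WT window and 15 had one with each substitution. Of all listed genes 38.0% had a WT window, 89.5% one with R62W and 93.5% one with R101H. The 20 genes had 54 windows in WT, 390 with R62W and 430 with R101H. The last 2 counts are 7.22 and 7.96 times that of WT, against 5.62 and 6.06 times over all windows. DICER1, the RNase that cuts microRNA precursors, had 3, 44 and 60 windows. HELZ had 2, 47 and 57 and ASCC3, a helicase of ribosome quality control, had 1, 41 and 47. UPF1, the central helicase of nonsense-mediated decay, had 12 WT windows at a median log2 odds ratio of 2.61. Its median was 1.76 over 36 windows in R62W and 1.80 over 37 with R101H. ASCC3 and HELZ also had their highest median in WT, at 2.52 and 2.12, while EIF4A1, EIF4A2, EIF4A3 and SNRNP200 had their lowest there. Such medians cover different windows in each list, so they give no difference within windows, and none was computed for UPF1 alone. The median difference over shared windows of these genes was 0.14 for R62W minus WT (49 windows, 36 higher) and 0.38 for R101H minus WT (48 windows, 37 higher), against 0.26 and 0.60 over all shared windows.

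The translation initiation helicases EIF4A1 and EIF4A2, and EIF4A3 of the exon junction complex, had 13, 7 and 12 WT windows. With R62W they had 32, 22 and 21, and with R101H 27, 19 and 19. HELZ2, DQX1, TDRD9, HFM1 and MOV10L1 had none in any list.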
